A study of Mus musculus with 6 samples.

Results

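Regulatory T cells (Tregs) are CD4 T cells that restrain other immune cells. Here they are the cells that the study's own annotation placed in its Treg or Cycling_Treg cluster. These clusters held 159 of the 2084 annotated T and NK cells, with 64 of 516 cells in the PBS library, 58 of 843 in the mono-IL10 library and 37 of 725 in the IL10/2-Trikine library. Of the 159 cells, 127 were in the Treg cluster and 32 in the Cycling_Treg cluster. A mouse was assigned to 142 of them by its hashtag (55 PBS, 56 mono-IL10 and 31 IL10/2-Trikine cells).

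The cells came from subcutaneous tumors grown from 6694c2vTRP1, a mouse line of pancreatic ductal adenocarcinoma, of which 250000 cells had been inoculated per mouse. Mice received PBS, mono-IL10 at 26 µg per mouse or IL10/2-Trikine at 30.6 µg per mouse by intraperitoneal injection, in 2 doses given 2 days apart from day 8, and were killed on day 14. mono-IL10 is a monomeric form of human interleukin-10 (IL-10), and IL10/2-Trikine joins it to a domain that recruits the beta chain of the interleukin-2 (IL-2) receptor to the IL-10 receptor. All 15 mice were C57BL/6 with no stated genetic change, and the study used males and females for this tumor model. It gives an age for a growth study of the parental tumor line, but not the age or sex of each sequenced mouse. No transfer of T cells is stated for these mice. The matrices also list 4 features named for TRP1 chains, of which Tregs held 23 UMIs of TRP1_High_beta, 6 of TRP1_Low_alpha and none of the other 2, and the source of these UMIs was not tested. CD45+ cells, which are leukocytes, were isolated with beads, labeled with 1 hashtag antibody for each of 5 mice, and pooled into 1 single-cell library per treatment. An effect of a treatment and an effect of its library therefore cannot be told apart, and all tests below compare mice within that limit. The 3 comparisons also share mice, since both cytokine groups were set against the same PBS mice.

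Tregs depend on the transcription factor Foxp3 and on IL-2 from other cells. They carry the high-affinity IL-2 receptor, made of the alpha chain Il2ra (CD25), the beta chain Il2rb and the common gamma chain Il2rg, which signals through Jak1 and Jak3 to Stat5. IL-10 binds the receptor chains Il10ra and Il10rb and signals mainly through Stat3. Tregs respond to IL-10 and also secrete it, and in tumors they limit the killing of cancer cells by other lymphocytes.

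The 159 cells carried the markers of regulatory T cells. Foxp3 was detected by at least 1 unique molecular identifier (UMI, 1 counted RNA molecule) in 98 of the 159 cells and in 6 of the other 1925 annotated cells. In the Treg cluster 63.8% of cells had a Foxp3 UMI, at a median of 2421 UMIs per cell, and in the Cycling_Treg cluster 53.1% at a median of 4104.5 UMIs. None of the 795 NK cells, which should lack Foxp3 and had a median of 3034 UMIs, held a Foxp3 UMI, which allows up to 0.377% of cells with a UMI and limits detection, not expression. At least 3 of the 4 markers Foxp3, Ikzf2 (the transcription factor Helios), Il2ra and Ctla4 (an inhibitory receptor that competes for costimulatory ligands) were detected in 147 of the 159 cells, or 92.5%. All 4 were detected in 86 cells, or 54.1%. In the act_CD4T cluster of activated CD4 T cells, which is the most like cluster by its name, these shares were 17.4% and 1.74%. The clusters had been drawn from these same cells, so the marker levels are a description and were not tested.

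The markers differed in how particular they were. Il2ra was detected in 92.9% of Treg cells and 100% of Cycling_Treg cells, against 42.4% of act_CD4T cells and 3.50% of naive_CD8T cells. Ikzf2 was detected in 98.4% and 96.9% of the Treg and Cycling_Treg cells but also in 70.4% of gdT/NKT cells and 46.7% of NK cells. Ctla4 was detected in 90.6% and 93.8% of the Treg and Cycling_Treg cells and in 60.5% of naive_CD8T cells. Foxp3 and Il2ra thus separated Tregs from the other clusters more sharply than Ikzf2 and Ctla4 did. Cd4, the coreceptor that defines the lineage, was detected in 32.3% of Treg and 50.0% of Cycling_Treg cells, a low share also seen in naive_CD4T cells (20.5%).

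Among genes above 100 CPM (UMIs of the gene divided by all UMIs of the summed cells, times 1000000) in the Tregs of each library, those with the highest level relative to all other annotated T cells included Foxp3, Il10, Izumo1r, Itgb8, Klrg1 and Maf. These were picked from the ranking for their known roles. Nckap5 ranked first, and Frmd5, Pcsk1 and Bmyc also ranked above Maf. Il10, which encodes IL-10 itself, reached 352 CPM in the Treg cluster and 163 CPM in the Cycling_Treg cluster, against 4.22 CPM in act_CD4T cells. It was detected in 27.6% of Treg cells and 25% of Cycling_Treg cells, and in 1.16% of act_CD4T cells. Izumo1r encodes folate receptor 4, a surface protein of Tregs, and was at 157 (PBS), 302 (mono-IL10) and 294 CPM (IL10/2-Trikine) in the summed Tregs. Itgb8 encodes an integrin chain that activates TGF-beta, Klrg1 a receptor of differentiated lymphocytes, and Maf a transcription factor that supports Il10 expression.

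**Figure D1:**
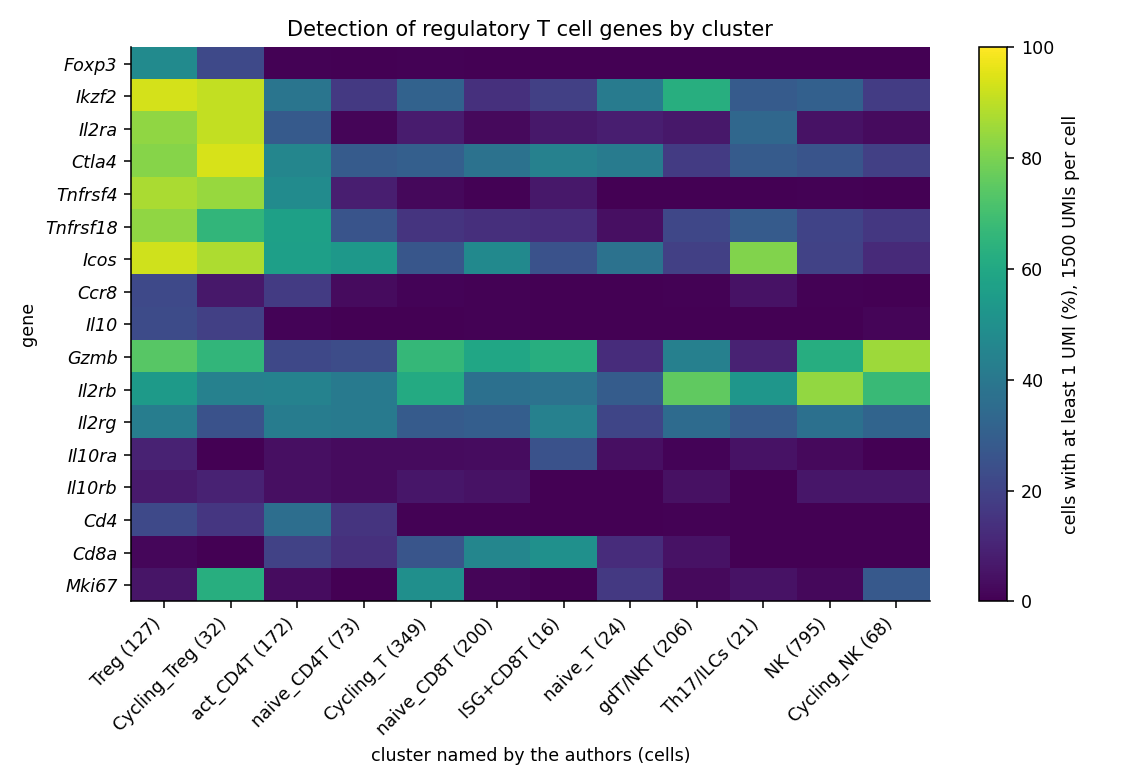
Share of cells with at least 1 UMI of each gene (rows, color scale in percent) in the 12 annotated clusters (columns, number of cells in brackets), after every cell had been thinned to 1500 UMIs and shallower cells left out. Foxp3 was detected in 48.0% of Treg and 21.9% of Cycling_Treg cells on this footing and in 0.581% of act_CD4T cells.

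Cells were few and shallow. The number of Tregs per mouse was 9, 6, 15, 17 and 8 in PBS mice 1 to 5, 15, 16, 4, 16 and 5 in mono-IL10 mice, and 13, 8, 2, 2 and 6 in IL10/2-Trikine mice. Mice with fewer than 3 Tregs, which were IL10/2-Trikine mice 3 and 4, were left out of the gene tests and of the cycling share, so that 5, 5 and 3 mice remained. Median UMIs per Treg were 2552, 2526.5 and 2519 in PBS, mono-IL10 and IL10/2-Trikine, and summed UMIs per mouse in the fit ran from 14079 to 67799. Pairs of libraries shared 408 to 700 barcodes, none of them annotated as a cell in both libraries. Markers of other cell types were present at low levels in the summed Treg counts. The 6 macrophage genes summed to 265 to 1421 CPM per PBS mouse, 249.6 to 1161 CPM per mono-IL10 mouse and 361 to 1041 CPM per IL10/2-Trikine mouse, with all 6 detected in PBS and IL10/2-Trikine and Csf1r at 0 in mono-IL10. Of the 5 NK cell genes, the defining receptors Ncr1, Klrb1c and Klre1 were at 0 in PBS and mono-IL10 Tregs while all 5 were detected in IL10/2-Trikine, where the list summed to 41.4 to 561 CPM per mouse against 55.0 to 426 in PBS and 125 to 468 in mono-IL10. The B cell genes Cd79a and Ms4a1 and the neutrophil gene Csf3r were at 0 in all 3 libraries. The 4 tumor epithelial genes, all detected in each library, summed to at most 71.0, 89.5 and 226 CPM per mouse, and the 3 neutrophil genes to at most 501, 24.6 and 187 CPM. The part of these cells in the results below was not tested, except that counts of called genes without cells holding macrophage or NK UMIs are given at the end. Those are cells with at least 3 UMIs of the macrophage genes or at least 3 of the NK genes.

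The first question was whether the treatments changed how many of the T and NK cells in the tumor were Tregs. In PBS mice 1 to 5 Tregs made up 15%, 9.38%, 21.1%, 15.2% and 19.5% of annotated T and NK cells. In mono-IL10 mice they made up 8.52%, 13.9%, 11.4%, 7.44% and 5.32%. In IL10/2-Trikine mice they made up 19.4%, 5.97%, 4.35%, 4.17% and 5.71%. Of the 5 IL10/2-Trikine mice, 4 lay below every PBS mouse and mouse 1 lay among them, while 3 of the 5 mono-IL10 mice lay below every PBS mouse.

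PBS mice averaged 16.0% ± 4.59, mono-IL10 mice 9.33% ± 3.38 and IL10/2-Trikine mice 7.92% ± 6.47 (SD, n = 5 each). mono-IL10 minus PBS was -6.71 percentage points (exact two-sided permutation test, p = 0.0397, adjusted p = 0.114 over 12 tests of shares). IL10/2-Trikine minus PBS was -8.12 percentage points (exact permutation p = 0.0635, adjusted p = 0.127). IL10/2-Trikine minus mono-IL10 was -1.40 percentage points (exact permutation p = 0.706, adjusted p = 0.771), and with 1 mouse left out it ran from -0.26 (without mono-IL10 mouse 2) to -4.28 (without IL10/2-Trikine mouse 1, exact permutation, adjusted p = 0.0952). None of these differences passed an adjusted p of 0.05, and the smallest p that 5 mice against 5 allow is 0.00794. Other ways to count gave -0.93 (T cells with a Foxp3 UMI, thinned) to -14.9 points (cells with at least 2000 genes) for mono-IL10 minus PBS and -2.82 to -12.5 points, by the same counts, for IL10/2-Trikine minus PBS. Over whole libraries, cells without a mouse included, Tregs were 12.4% of T and NK cells for PBS (95% exact binomial interval 9.68 to 15.6, counting error only), 6.88% for mono-IL10 (5.27 to 8.80) and 5.103% for IL10/2-Trikine (3.62 to 6.97). Cells with a mouse were 348 of 516 T and NK cells in PBS, 635 of 843 in mono-IL10 and 400 of 725 in IL10/2-Trikine. Of Tregs they were 55 of 64, 56 of 58 and 31 of 37. The mean share per mouse lay above the whole-library share in each group, and the part of the unassigned cells was not tested.

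A share of T and NK cells depends on the number of NK cells, so Tregs were also counted among T cells and among the CD4 clusters. Tregs averaged 22.6% ± 6.66 of the T cells of PBS mice, 13.3% ± 4.90 of those of mono-IL10 mice and 16.4% ± 9.14 of those of IL10/2-Trikine mice (SD, n = 5 each). mono-IL10 minus PBS was -9.26 percentage points (exact permutation p = 0.0476, adjusted p = 0.114), and IL10/2-Trikine minus PBS was -6.19 points (p = 0.238 by the same exact permutation test, adjusted p = 0.357). Other ways to count gave -1.19 to -16.9 points for the first and -0.89 to -7.67 points for the second. Over whole libraries, cells without a mouse included, Tregs were 18.7% (PBS), 10.0% (mono-IL10) and 12.4% (IL10/2-Trikine) of T cells. IL10/2-Trikine mouse 1 stood at 32.5% of T cells while the other 4 mice of its group ran from 10.5% to 15%. Without this mouse IL10/2-Trikine minus PBS was -10.2 percentage points of T cells, and IL10/2-Trikine minus mono-IL10 moved from 3.07 to -0.95 points (exact permutation p = 0.611 with the mouse).

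Of the CD4 clusters (Treg, Cycling_Treg, act_CD4T and naive_CD4T), Tregs averaged 54.4% ± 8.60 for PBS, 38.3% ± 12.7 for mono-IL10 and 56.1% ± 13.4 for IL10/2-Trikine (SD, n = 5 each). mono-IL10 minus PBS was -16.1 percentage points, with 3 of 5 mice below every PBS mouse (exact permutation p = 0.0476, adjusted p = 0.114). Other counts gave -30.9 points (cells with at least 2000 genes) to 0.47 points (T cells with a Foxp3 UMI, thinned). The IL10/2-Trikine share was 17.8 points above mono-IL10, with 3 of 5 mice above every mono-IL10 mouse (exact permutation p = 0.0794, adjusted p = 0.136). Against PBS its difference was 1.66 points (exact permutation p = 0.857), and -4.72 points for the Treg cluster alone. Over whole libraries, cells without a mouse included, Tregs were 42.7% (PBS), 30.9% (mono-IL10) and 56.1% (IL10/2-Trikine) of the CD4 clusters. No mouse was assigned to 23 of 56 act_CD4T cells in PBS, 19 of 88 in mono-IL10 and 5 of 28 in IL10/2-Trikine. For Tregs these were 9 of 64, 2 of 58 and 6 of 37. In PBS and mono-IL10 the mean per mouse lay above the whole-library share. The CD4 share in IL10/2-Trikine rests on 3 to 18 CD4 cells per mouse. For the Treg cluster alone it was 6.65 points above mono-IL10. Among cells with at least 2000 genes its mean was 100%, which was 45.7 points above PBS and 76.6 points above mono-IL10. That cut lay above the median genes per act_CD4T cell of every library, which was lowest for IL10/2-Trikine (1160, against 1840 for mono-IL10 and 1334.5 for PBS). Cycling_Treg medians were 1673, 2582 and 2500 genes in the same order. The 100% is thus no share of all CD4 cells, and the part of cell depth in it was not tested.

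**Figure D2:**
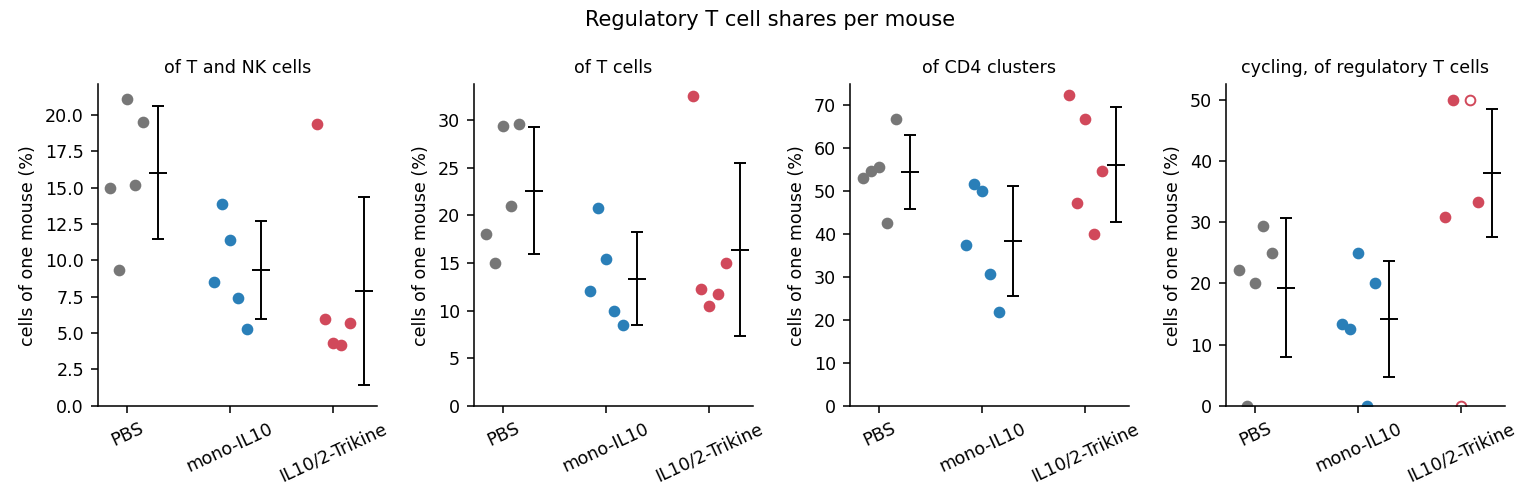
Tregs of each mouse as a percent of its annotated T and NK cells, of its T cells and of its CD4 clusters, and cycling cells as a percent of its Tregs (each circle 1 mouse, black bars mean ± SD, over all 5 mice of a group in the first 3 panels). In the last panel open circles are mice with under 3 Tregs, which are outside its mean. In the first panel 4 of 5 IL10/2-Trikine mice sit below every PBS mouse and the fifth sits at 19.4%.

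Cycling Tregs were counted apart. Of the Tregs of each mouse, the Cycling_Treg cluster held 22.2%, 0%, 20.0%, 29.4% and 25% in PBS mice 1 to 5. It held 13.3%, 12.5%, 25%, 0% and 20.0% in mono-IL10 mice, and 30.8%, 50.0% and 33.3% in IL10/2-Trikine mice 1, 2 and 5. These 3 values exceeded all 10 values of PBS and mono-IL10. A count of 0 allowed a share of up to 50.0% among the 6 Tregs of PBS mouse 2 and up to 18.8% among the 16 of mono-IL10 mouse 4.

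PBS mice averaged 19.3% ± 11.4 (SD, n = 5), mono-IL10 mice 14.2% ± 9.43 (SD, n = 5) and IL10/2-Trikine mice 38.0% ± 10.4 (SD, n = 3). The IL10/2-Trikine share was 18.7 percentage points above PBS and 23.9 points above mono-IL10 (exact two-sided permutation p = 0.0357 for each, which is the smallest that 3 mice against 5 allow, and adjusted p = 0.114 for each). mono-IL10 minus PBS was -5.16 points (p = 0.476 by the same exact permutation test, adjusted p = 0.635), and reached -15.1 points for cells with an Mki67 UMI (adjusted p = 0.114). With 1 mouse left out it ran from -1.62 (without mono-IL10 mouse 4) to -9.99 (without PBS mouse 2). For IL10/2-Trikine all other counts gave a smaller difference from PBS, down to 7.48 points for cells with an Mki67 UMI and 4.70 points for the same in thinned cells (exact permutation, adjusted p = 0.714 and 0.733). From mono-IL10 the difference ran from 16.6 to 24.8 points under the same alternatives. With the 2 excluded mice added, which held 0 of 2 and 1 of 2 cycling cells, the IL10/2-Trikine mean was 32.8% ± 20.4 (SD, n = 5). Over whole libraries 13 of 64 PBS, 6 of 58 mono-IL10 and 13 of 37 IL10/2-Trikine Tregs cycled, or 20.3% (95% exact interval 11.3 to 32.2), 10.3% (3.89 to 21.2) and 35.1% (20.2 to 52.5).

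The Cycling_Treg cells held RNA of both DNA replication and mitosis. Mki67, which encodes the proliferation antigen Ki-67, was at 693 CPM in the Cycling_Treg cluster and 35.8 CPM in the Treg cluster. Top2a, the topoisomerase that untangles replicated DNA, was at 774 against 29.8 CPM, and Ube2c, which drives exit from mitosis, at 507 against 2.98 CPM. Of the replication genes, the ribonucleotide reductase subunit Rrm1 was at 329.8 against 8.95 CPM and the sliding clamp Pcna at 445 against 143 CPM. These genes define the cluster, so their levels were not tested. All 4 markers were detected in the cycling cells, with Foxp3 at 287 CPM against 561 in the Treg cluster, Il2ra at 1759 against 2058, Ctla4 at 1487 against 1927 and Ikzf2 at 1783 against 2598 over the 3 libraries. Within libraries the order turned for Il2ra in PBS (1895 CPM in cycling and 1513 in Treg cluster cells) and, in IL10/2-Trikine, for Ctla4 (2011 against 1690) and Ikzf2 (2143 against 2088). A Cycling_Treg cell held a median of 6352 UMIs in the PBS library, 7660.5 in the mono-IL10 library and 3159 in the IL10/2-Trikine library.

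Over all Tregs of a mouse, 6 of the 15 replication genes and 10 of the 18 mitosis genes passed the filter on low counts, and none of these 16 passed the edgeR test in any of the 3 comparisons. Rrm1 was at 267, 289.9 and 226 CPM in IL10/2-Trikine mice 1, 2 and 5, at 24.6 to 129 CPM in mono-IL10 mice and at 0 to 222 CPM in PBS mice. For Rrm1 the 3 IL10/2-Trikine mice exceeded all PBS and mono-IL10 mice (adjusted p = 0.17 against mono-IL10 and 0.717 against PBS, edgeR). Uhrf1, which copies DNA methylation at replication, was at 160.2, 207 and 226 CPM in the same mice, at 0 to 129 CPM in mono-IL10 and at 0 to 138 CPM in PBS (adjusted p = 0.194 and 0.659, edgeR). Full separation of 3 mice from 5 has an exact permutation p of 0.0357 before any adjustment. The share of all tested genes that separate in this way was not counted. Separation of mice is therefore no support by itself, here or for the genes below. Mki67 levels overlapped, at 142 to 590.0 CPM per PBS mouse, 0 to 484 CPM per mono-IL10 mouse and 90.3 to 414 CPM per IL10/2-Trikine mouse. In that order of groups 26.6%, 12.1% and 35.1% of Tregs held an Mki67 UMI, and 20.3%, 8.62% and 24.3% at 1500 UMIs per cell.

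The next question was whether Tregs carried the receptors that the cytokines engage. Il2ra was at 1739, 1634, 1817, 1298 and 2420 CPM in PBS mice, at 1844, 2092, 1435, 2707 and 1000 CPM in mono-IL10 mice and at 2296, 2527 and 2167 CPM in IL10/2-Trikine mice 1, 2 and 5. The 3 groups overlapped. In the Treg cluster alone, summed over each library, Il2ra was at 1513 (PBS), 2082 (mono-IL10) and 3165 CPM (IL10/2-Trikine), and the lowest adjusted p of any tested marker or receptor chain there was 0.0998 (edgeR, IL10/2-Trikine against PBS). Il2rb, the chain that IL10/2-Trikine was built to engage, was at 383, 426, 363, 354 and 578 CPM in PBS, at 555, 642, 499, 517 and 613 CPM in mono-IL10 and at 721, 663 and 497 CPM in IL10/2-Trikine. It was detected in 78.1%, 74.1% and 78.4% of Tregs in PBS, mono-IL10 and IL10/2-Trikine. PBS mouse 5 lay within the range of both cytokine groups and the other 4 PBS mice lay below them. Il2rg was at 213 to 424 CPM per PBS mouse, 258 to 468 CPM per mono-IL10 mouse and 107 to 414 CPM per IL10/2-Trikine mouse, again with overlap.

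The IL-10 receptor chains were near the limit of detection. Il10ra gave 9, 10 and 3 UMIs over all Tregs of the PBS, mono-IL10 and IL10/2-Trikine libraries, and Il10rb gave 11, 7 and 6. Neither passed the filter on low counts, so no treatment difference could be tested at this depth. Il10ra was detected in 14.2% of Treg cells, 3.12% of Cycling_Treg cells, 8.72% of act_CD4T cells and 1.46% of gdT/NKT cells. Il2rb by comparison was detected in 75.6% of Treg cells, 81.2% of Cycling_Treg cells and 95.6% of NK cells. Between clusters the summed Il2rb level was 609 CPM in Treg, 392 in Cycling_Treg, 455 in act_CD4T, 1077 in gdT/NKT and 1345 in NK cells.

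**Figure D3:**
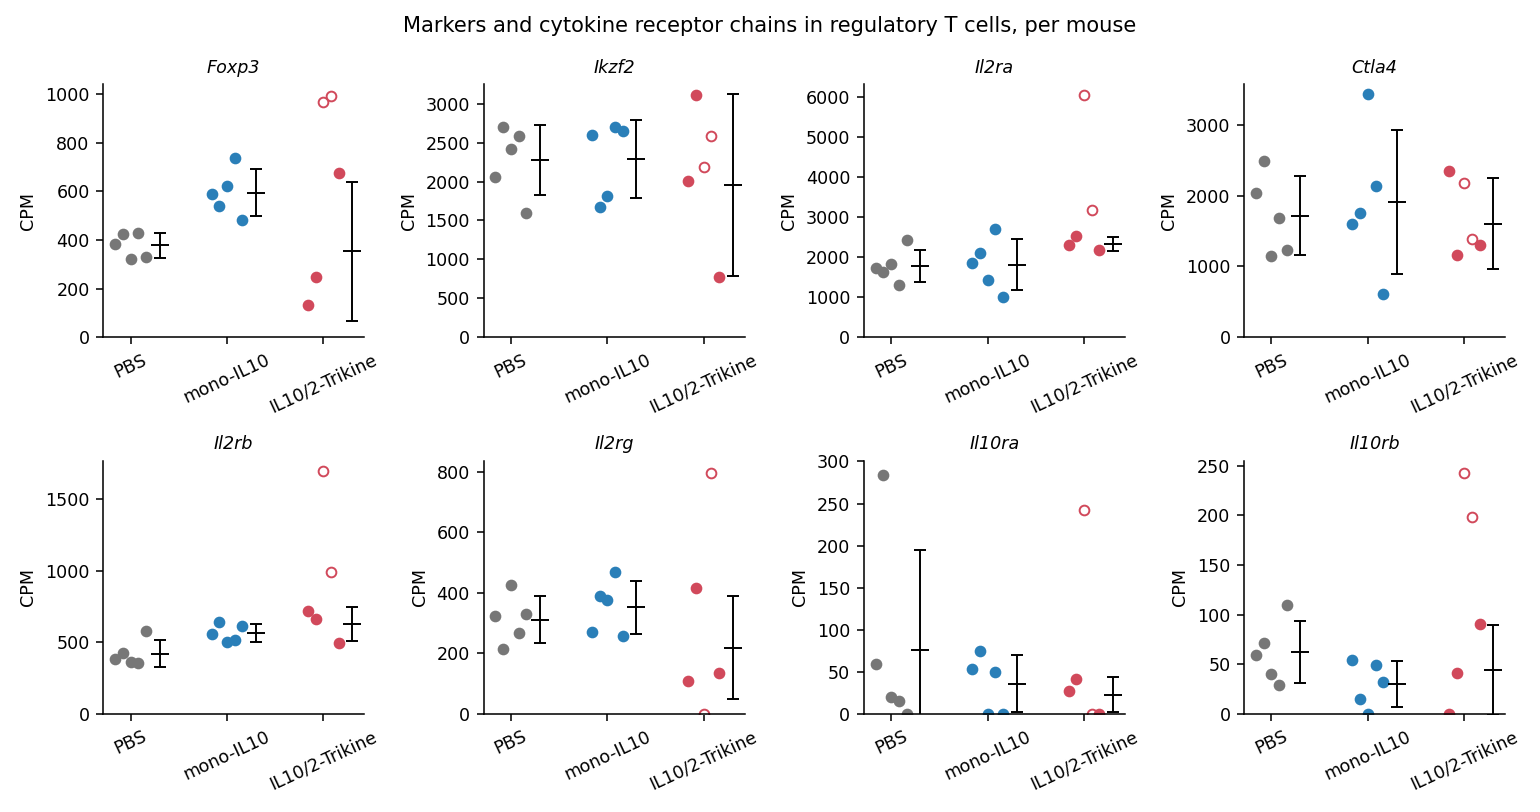
Level of the 4 Treg markers and the remaining IL-2 and IL-10 receptor chains in the summed Tregs of each mouse, in CPM (circles are mice, open circles mice with under 3 Tregs, bars mean ± SD of the others). The groups overlap for Ikzf2, Il2ra, Ctla4 and Il2rg, and 5 of 5 mono-IL10 mice lie above the PBS mice for Foxp3 (adjusted p = 0.802, edgeR).

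Foxp3 itself was at 383, 426, 323, 428 and 330.0 CPM in PBS mice 1 to 5. It was at 591, 538, 624, 738 and 484 CPM in mono-IL10 mice, and at 133, 249 and 677 CPM in IL10/2-Trikine mice 1, 2 and 5. Every mono-IL10 mouse lay above every PBS mouse, while the IL10/2-Trikine mice spread from below PBS to within the mono-IL10 range. The 3 group means, here and below with their SD over 5 PBS, 5 mono-IL10 and 3 IL10/2-Trikine mice, were 378 ± 50.4, 595 ± 96.2 and 353 ± 287 CPM. For Foxp3 the adjusted p was 0.802 for mono-IL10 against PBS (edgeR). The lowest over the 3 comparisons was 0.448, for IL10/2-Trikine against mono-IL10 (edgeR). A Foxp3 UMI was found in 56.2% of PBS, 75.9% of mono-IL10 and 48.6% of IL10/2-Trikine Tregs, and in 37.5%, 55.2% and 32.4% at 1500 UMIs per cell. Ikzf2 was at 2272 ± 448, 2286 ± 501 and 1959 ± 1170 CPM in the same order, and Ctla4 at 1718 ± 558, 1909 ± 1022 and 1606 ± 648 CPM. No marker or receptor chain that could be tested passed the threshold in any comparison.

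Gene levels were then compared between treatments over all 1984 genes that passed the filter, in UMI counts summed per mouse. With IL10/2-Trikine against PBS, 1 gene passed an adjusted p of 0.05 (edgeR quasi-likelihood test), which is 0.0504% of the genes tested, and 148 had an unadjusted p under 0.05. With IL10/2-Trikine against mono-IL10 no gene passed (0%), and 204 had an unadjusted p under 0.05. With mono-IL10 against PBS no gene passed (0%), and 118 had an unadjusted p under 0.05. DESeq2 called 4, 4 and 0 genes in the same order. In the Treg cluster alone edgeR called 5 for the first and 15 for the second comparison. Of the 208 genes in the lists described below, 121 passed the filter and 1 was called, in IL10/2-Trikine against PBS.

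The called gene was Ifitm2, an interferon-induced membrane protein that restricts virus entry. It was at 147, 213, 40.4, 59.0 and 110.0 CPM in PBS mice, at 269, 179, 374, 492 and 290.2 CPM in mono-IL10 mice and at 240.3, 1160 and 1535 CPM in IL10/2-Trikine mice 1, 2 and 5. All 3 IL10/2-Trikine mice in the fit lay above every PBS mouse, while mice 3 and 4, outside the fit, were at 0 and 199 CPM. Ifitm2 rose 3.35 ± 0.502 on the log2 scale (SE, n = 3 against 5 mice, adjusted p = 0.000708, edgeR) in IL10/2-Trikine against PBS. Against mono-IL10 the log2 difference was 1.65 ± 0.428 (SE, adjusted p = 0.114, edgeR), and mono-IL10 exceeded PBS by 1.70 ± 0.502 (SE, adjusted p = 0.631, edgeR).

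This call rested on 2 cells. Of the 72 Ifitm2 UMIs in the IL10/2-Trikine Tregs, 31 came from 1 cell of mouse 5 and 18 from 1 cell of mouse 2, both in the Treg cluster, and 23 from the other 35 cells. The first cell also held 31 UMIs of the related gene Ifitm3 and 23 of Il2ra, and 0 of Foxp3, Ctla4 and Cd3e. The second held 14 of Ifitm3, 24 of Ifitm1 and 232 of S100a6, with 1 of Foxp3, 7 of Ctla4 and 0 of Cd3e. Neither held a UMI of C1qa, C1qb, C1qc, Krt8 or Krt18. Without these 2 cells the log2 difference from PBS was 1.66 with an adjusted p of 0.361 (edgeR), and no gene was called. Ifitm2, Ifitm3 and Ifitm1 are close relatives, and UMIs may have been split between them. In the other annotated T and NK cells Ifitm2 was at 185 to 652 CPM per PBS mouse, 177 to 696 CPM per mono-IL10 mouse and 142 to 662 CPM per IL10/2-Trikine mouse, so those groups overlapped. In act_CD4T cells summed over each library, Ifitm2 was at 573 (PBS), 788 (mono-IL10) and 906 CPM (IL10/2-Trikine). Its log2 difference from PBS in act_CD4T cells was 0.87 for IL10/2-Trikine and 0.85 for mono-IL10 (adjusted p = 0.733 and 0.659, edgeR). In the same summed cells Ifitm3 was at 198, 192 and 753 CPM and Ifitm1 at 359, 1347 and 2203 CPM.

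Further genes with the smallest p-values in IL10/2-Trikine against PBS did not pass. Gstp1, a glutathione transferase that detoxifies reactive compounds, was at 324, 142, 141, 162 and 138 CPM in PBS mice and at 507, 331 and 903 CPM in IL10/2-Trikine mice, with a log2 difference of 1.71 ± 0.393 (SE, adjusted p = 0.0685, edgeR). All 3 IL10/2-Trikine mice were above every PBS mouse, and the near-identical Gstp2 makes its count uncertain. Gstp1 passed in 2 of 12 other settings, the Treg cluster alone and without cells holding macrophage or NK UMIs. S100a6, a calcium-binding protein, was at 1878 to 4475 CPM in PBS and at 5793, 12343 and 6502 CPM in IL10/2-Trikine (log2 difference 1.57 ± 0.359, SE, adjusted p = 0.214, edgeR), and the cell with 232 UMIs named above supplied 29.9% of all its UMIs in that library. S100a6 passed in 4 of 12 other settings, DESeq2 among them (adjusted p = 0.00888), and without the 2 cells named above its difference was 0.63 (adjusted p = 0.811, edgeR). S100a6 in the other annotated cells was at 1436 to 2596 CPM per PBS mouse and 2072 to 3546 CPM per IL10/2-Trikine mouse. Gnaq, a G protein subunit, was at 55.0 to 142 CPM in PBS and at 214, 331 and 316 CPM in IL10/2-Trikine (log2 difference 1.83 ± 0.499, SE, adjusted p = 0.214, edgeR). Gnaq was also higher in the other annotated cells, at 45.8 to 59.8 CPM per PBS mouse and 62.4 to 108 CPM per IL10/2-Trikine mouse.

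Both chains of an antigen-presenting molecule were at the low end. B2m, the light chain of MHC class I, was at 6427, 5753, 5209, 5752 and 4510 CPM in PBS and at 3364, 2941 and 1942 CPM in IL10/2-Trikine, all below every PBS mouse (log2 difference -0.92 ± 0.215, SE, adjusted p = 0.0685, edgeR). B2m passed in 7 of 12 other settings, DESeq2 among them (adjusted p = 0.00888), with adjusted p-values up to 0.313 over the 12. H2-K1, a class I heavy chain, was at 2860 to 3744 CPM in PBS and at 2189, 1822 and 1264 CPM in IL10/2-Trikine (log2 difference -0.84 ± 0.233, SE, adjusted p = 0.214, edgeR). In the other annotated cells of each mouse B2m was at 4051 to 4552 CPM for PBS, 3978 to 4463 for mono-IL10 and 3135 to 3592 for IL10/2-Trikine, and H2-K1 at 2143 to 2562, 1493 to 2291 and 1515 to 1992 CPM. B2m was thus lower in IL10/2-Trikine than in PBS in every mouse of those cells too, and the part of the library in this result was not tested.

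The 5 remaining named genes of this comparison were Tmem234, Prdx2, Adamts6, Tpp2 and Atp5mpl, with adjusted p-values from 0.278 to 0.321. Over all Tregs of a library Prdx2, a peroxidase that removes hydrogen peroxide, was at 37.9 CPM (4 UMIs) in IL10/2-Trikine against 175 CPM (39 UMIs) in PBS and 209 CPM (45 UMIs) in mono-IL10. Tmem234 was at 28.4 CPM (3 UMIs) against 193 (43 UMIs) and 130.0 CPM (28 UMIs), and Adamts6 at 56.8 CPM (6 UMIs) against 166 (37 UMIs) and 74.3 CPM (16 UMIs). Atp5mpl, a small subunit of ATP synthase, was at 339 to 385 CPM in PBS and at 587, 911 and 632 CPM in IL10/2-Trikine. In the other annotated cells Atp5mpl was also higher, at 251.7 to 450.1 CPM per PBS mouse and 465 to 691 CPM per IL10/2-Trikine mouse. Tpp2, a peptidase, differed by -1.84 on the log2 scale in Tregs, and in the other cells it was at 206 to 328 CPM in PBS and 144 to 177 CPM in IL10/2-Trikine.

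**Figure D4:**
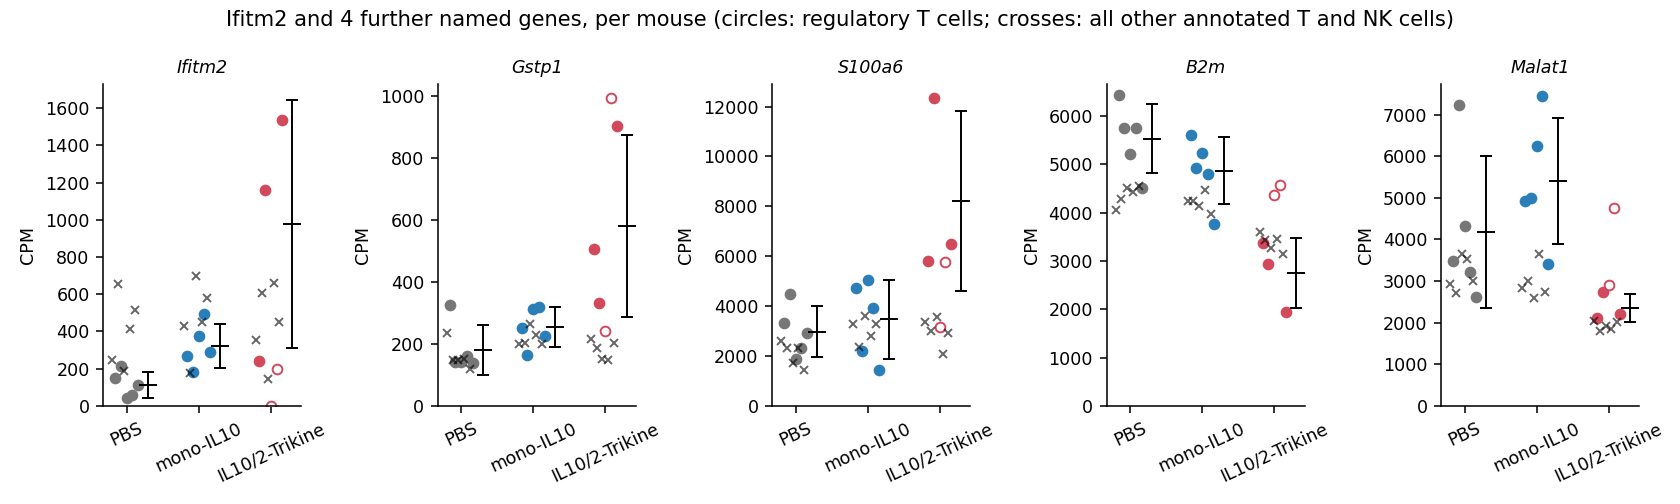
Level of Ifitm2, Gstp1, S100a6, B2m and Malat1 in CPM for each mouse (filled circles Tregs of mice with at least 3, open circles of mice with under 3, crosses all other annotated T and NK cells of the same mouse, bars mean ± SD of the filled circles). Ifitm2 is above the PBS range in all 3 filled IL10/2-Trikine circles, and for B2m and Malat1 the crosses are lower in IL10/2-Trikine as well.

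Between IL10/2-Trikine and mono-IL10, Malat1 had the smallest p. This nuclear noncoding RNA was at 4924, 5005, 6241, 7456 and 3418 CPM in mono-IL10 mice and at 2109, 2734 and 2212 CPM in IL10/2-Trikine mice, all below every mono-IL10 mouse (log2 difference -1.13 ± 0.256, SE, adjusted p = 0.108, edgeR). In the other annotated cells it was at 2601 to 3650 CPM per mouse in mono-IL10 and 1795 to 2043 CPM in IL10/2-Trikine, and the part of the library was not tested. Malat1 passed in 4 of 12 other settings, DESeq2 among them (adjusted p = 0.0327). Bola2, a partner of iron-sulfur glutaredoxins, was at 0 to 98.4 CPM in mono-IL10 and at 427, 166 and 226 CPM in IL10/2-Trikine (log2 difference 2.12 ± 0.516, SE, adjusted p = 0.108, edgeR). PBS mice were at 182 to 295 CPM for Bola2, so the mono-IL10 mice stood apart from both other groups. In the other annotated cells Bola2 was at 212 to 259 CPM per mono-IL10 mouse and 295 to 346 CPM per IL10/2-Trikine mouse. For Bola2, mono-IL10 minus PBS was -1.75 ± 0.453 on the log2 scale (SE, adjusted p = 0.359, edgeR).

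Among the other named genes of this comparison were Crem, a cyclic AMP-responsive repressor, and Zeb1, a transcriptional repressor. Crem was at 686 to 984 CPM in mono-IL10 and at 294, 414 and 271 CPM in IL10/2-Trikine (adjusted p = 0.112, edgeR). Zeb1 was at 466 to 811 CPM in mono-IL10 and at 134, 289.9 and 181 CPM in IL10/2-Trikine (adjusted p = 0.112, edgeR). For both genes the 2 groups did not overlap. These genes were picked by their p-values, so this is no separate support. Fth1 (ferritin heavy chain), H3f3b (a replacement histone), Eif1 (a translation initiation factor) and Prdx2 were also lower in IL10/2-Trikine, and the protease Capn2 higher, with adjusted p-values from 0.108 to 0.112. Several were lower in the other cells of every IL10/2-Trikine mouse as well. In those cells Eif1 was at 1247 to 1530 CPM against 1612 to 1814 in mono-IL10, H3f3b at 1290 to 1538 against 1778 to 2012, Fth1 at 1265 to 1726 against 2050.0 to 2489 and Zeb1 at 166 to 250.1 against 253 to 395, while Crem, Prdx2 and Capn2 overlapped. The tenth gene is X-linked and is not named.

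The sums joined cycling and other Tregs, and several of these genes were lower in cycling cells. Over the 3 libraries Malat1 was at 1883 CPM in the Cycling_Treg cluster and 5608 CPM in the Treg cluster, Fth1 at 1630 against 4298, B2m at 3576 against 5587, Zeb1 at 258 against 540 and Crem at 387 against 755. Summed over each library, the Treg cluster alone also held less of them in IL10/2-Trikine. Malat1 was at 5633 (PBS), 6684 (mono-IL10) and 2950 CPM (IL10/2-Trikine) there, and B2m at 6308, 5739 and 3679 CPM. In that cluster alone Malat1, H3f3b, Fth1 and Eif1 passed against mono-IL10 and B2m against PBS, while Zeb1 and Crem did not (edgeR). The part of the cycling share and of the library in these results was not tested.

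Between mono-IL10 and PBS, Cst7 had the smallest p. It encodes cystatin F, an inhibitor of the proteases that activate granzymes, and was at 0, 142, 121, 118 and 82.5 CPM in PBS and at 322, 179, 811, 271 and 419 CPM in mono-IL10. Every mono-IL10 mouse was above every PBS mouse (log2 difference 1.89 ± 0.44, SE, adjusted p = 0.198, edgeR). The chaperone Hsp90aa1 was at 923 to 1705 CPM in PBS and 312 to 1076 CPM in mono-IL10 (log2 difference -0.97 ± 0.27, SE, adjusted p = 0.541, edgeR). Litaf, an endosomal protein, was at 55.0 to 182 CPM in PBS and 246 to 312 CPM in mono-IL10, and Tap1, which carries peptides to MHC class I, at 138 to 310 and 32.2 to 179 CPM. Srgn, Hsp90b1, Ubald2, Pglyrp1 and G3bp1 completed the 10, with adjusted p-values from 0.631 to 0.802. Srgn, a granule proteoglycan, was also higher in the other annotated cells, at 1980.5 to 2627 CPM per mono-IL10 mouse against 1467 to 1919 CPM per PBS mouse, while the other 9 named genes overlapped. Over the 3 libraries Cst7 was at 110 CPM in the Cycling_Treg and 268 CPM in the Treg cluster, and Hsp90aa1 at 1382 and 689. Each of the 10 that was higher in mono-IL10 was lower in cycling cells, and each that was lower was higher there. Summed over each library, all 10 kept their direction in the Treg cluster alone, with Cst7 at 132 (PBS) and 370 CPM (mono-IL10). The part of the cycling share was not tested.

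The gene lists are described next by role, and none of their members but Ifitm2 passed the test. The medians of the 121 tested list genes on the log2 scale were -0.03 in IL10/2-Trikine against PBS, -0.17 in IL10/2-Trikine against mono-IL10 and 0.21 in mono-IL10 against PBS, beside 0.00, -0.02 and 0.02 over all genes tested. Signaling came first. Of the 10 JAK and STAT genes 8 were tested and 0 called, with 7 of 8 lower in IL10/2-Trikine than in mono-IL10 (median -0.75). Stat3, the main transducer of IL-10, was at 247 to 1563 CPM in PBS mice, 538 to 910.4 CPM in mono-IL10 mice and 507, 663 and 361 CPM in IL10/2-Trikine. Stat5b, which carries IL-2 signals, had means of 198 ± 120, 214 ± 88.4 and 110 ± 69.6 CPM.

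Of 12 cytokine feedback genes 6 were tested and 0 called. Cish, an inhibitor induced by Stat5, had means of 224 ± 63.7, 144 ± 56.1 and 205 ± 97.5 CPM. Pim1, a kinase induced by cytokines, was at 598, 701 and 706 CPM on average. Of the 10 genes that the study lists as STAT5 targets 5 were tested and 0 called. Gzmb (granzyme B) had means of 1231 ± 529, 2582 ± 1857 and 2414 ± 744 CPM. Ly6a (Sca-1) had means of 1403 ± 517, 2194 ± 1044 and 2205 ± 732 CPM, and both genes overlapped between groups. Nkg7, a protein of cytotoxic granules, was at 27.5 to 710.3 CPM in PBS mice, 548 to 1311 CPM in mono-IL10 mice and 667, 746 and 45.2 CPM in IL10/2-Trikine mice (lowest adjusted p 0.802, edgeR).

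Treg function was represented by 13 suppressive effector genes, of which 10 were tested and 0 called. Lgals1 (galectin-1) was at 1278 to 3155 CPM in PBS mice, 1548 to 3332 CPM in mono-IL10 mice and 2777, 5385 and 5283 CPM in IL10/2-Trikine (adjusted p = 0.321 against PBS and 0.128 against mono-IL10, edgeR). Mouse 1 lay within the other groups and mice 2 and 5 above them. Areg, a growth factor for tissue repair, ranged from 324 to 2261 CPM across PBS, 812 to 2740 CPM across mono-IL10 and 124 to 1629 CPM in IL10/2-Trikine. Il10 ranged from 14.7 to 710.3 CPM across PBS, 197 to 838 CPM across mono-IL10 and 207 to 400.5 CPM in IL10/2-Trikine, so that the 3 groups overlapped.

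Of 8 costimulatory receptors 7 were tested and 0 called, and all 7 were lower in IL10/2-Trikine than in mono-IL10 (median -0.25). Tnfrsf4 (OX40) was at 1580 to 3100 CPM in mono-IL10, 1238 to 1847 CPM in PBS and 988, 1450 and 722 CPM in IL10/2-Trikine (adjusted p = 0.128 against mono-IL10, edgeR). Tnfrsf9 (4-1BB), Icos and Tnfrsf18 (GITR) were each detected in at least 83.8% of the Tregs of every library, and their ranges overlapped. Of 9 inhibitory receptors 7 were tested and 0 called. Pdcd1 (PD-1) had means of 229.5 ± 161, 117 ± 38.9 and 136 ± 126 CPM. Tigit had means of 441 ± 248, 412 ± 240.4 and 248 ± 162 CPM, and Lag3 179.8 ± 218, 248 ± 146 and 108 ± 26.3 CPM.

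Of 11 genes of the T cell receptor complex all were tested and 0 called, with 10 lower in IL10/2-Trikine than in mono-IL10 (median -0.31) and 9 higher in mono-IL10 than in PBS (median 0.47). Cd3d was at 1016 to 1560 CPM in mono-IL10, 568 to 1018 CPM in PBS and 774, 497 and 361 CPM in IL10/2-Trikine (adjusted p = 0.128 against mono-IL10, edgeR). Trac, the alpha chain constant region, had means of 819, 858 and 797 CPM. Of 16 transcription factors of Tregs 12 were tested and 0 called. Rora was at 853 to 1555 CPM in PBS mice, 732 to 1709 CPM in mono-IL10 mice and 641, 704 and 361 CPM in IL10/2-Trikine, where all 3 mice lay below the range of both (adjusted p = 0.429 and 0.245, edgeR). Maf ranged from 501 to 1207 CPM, 249.6 to 931 CPM and 271 to 961 CPM, with the 3 groups overlapping. Gata3, which marks tissue-adapted Tregs, had means of 259.6 ± 88.2, 339 ± 85.7 and 540.1 ± 322 CPM.

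Resting genes (6 of 12 tested), homing receptors (9 of 13), activation genes (10 of 14), metabolism genes (6 of 13), effector cytokines (2 of 14) and interferon-stimulated genes (7 of 19) held no further call. Il7r, the IL-7 receptor, had means of 608 ± 295, 1060 ± 314 and 633 ± 274 CPM, and the monocyte chemokine receptor Ccr2 628 ± 273, 802 ± 334 and 464 ± 251 CPM. Il1rl1, the IL-33 receptor of tissue Tregs, had means of 439 ± 303, 484 ± 326 and 885 ± 653 CPM. Ccr8, a chemokine receptor of tumor Tregs, gave 43, 37 and 6 UMIs and was at 118 to 275 CPM in PBS mice, 125 to 258 CPM in mono-IL10 mice and 26.7, 41.4 and 135 CPM in IL10/2-Trikine mice (adjusted p = 0.546 and 0.451 against PBS and mono-IL10, edgeR). Of the activation genes, Nfkbia, an inhibitor of NF-kB, had means of 1064 ± 320, 1234 ± 314 and 884 ± 88.7 CPM, and the adhesion receptor Cd44 553 ± 243, 439 ± 82.2 and 576 ± 116 CPM. Of the effector cytokine list, the chemokine Ccl5 ranged from 275 to 639 CPM, 0 to 910.4 CPM and 0 to 774 CPM. Of the 7 tested interferon-stimulated genes, Ifitm2 and Ifitm3 were higher and 5 lower in IL10/2-Trikine than in PBS, with a median of -0.95. Ifitm3 was at 160.2, 869.8 and 1580 CPM in IL10/2-Trikine and at 0 to 236 CPM in PBS (adjusted p = 0.214, edgeR), and the 2 cells named above supplied 45 of its 68 UMIs in that library. Of the glycolysis enzymes, Gapdh had means of 1076, 1288 and 1468 CPM, and Eno1 279, 362 and 520.2 CPM (adjusted p = 0.383 against PBS, edgeR).

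Lastly it was asked whether Tregs responded differently from act_CD4T cells of the same mice. The interaction of cluster and treatment was tested on 2269 genes in 4 PBS, 5 mono-IL10 and 3 IL10/2-Trikine mice, with the mouse as a block. Against PBS the response to IL10/2-Trikine differed for no gene (0%, 66 with an unadjusted p under 0.05, edgeR), and the response to mono-IL10 differed for no gene (0%, 78 with an unadjusted p under 0.05). For Ifitm2 the difference between the clusters was 2.74 ± 0.664 on the log2 scale (SE, adjusted p = 0.238, edgeR). For IL10/2-Trikine against mono-IL10 it differed for 2 genes, 0.0881% of those tested, and 123 had an unadjusted p under 0.05. Both are chemokines. Ccl3, which attracts macrophages and lymphocytes, differed by -6.12 ± 1.10 on the log2 scale (SE, adjusted p = 0.00132, edgeR), and Ccl8, which attracts monocytes, by -3.54 ± 0.746 (SE, adjusted p = 0.0137, edgeR).

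Many of the UMIs of these 2 genes lay in few cells, and the test was not rerun without those cells. In Tregs Ccl3 gave 5, 38 and 2 UMIs in the PBS, mono-IL10 and IL10/2-Trikine libraries, and 20 of the 38 in mono-IL10 came from 1 cell. In act_CD4T cells 30 UMIs, or 2397 CPM, came from the 5 cells of IL10/2-Trikine mouse 5, while mice 1 and 2 gave 2 and 1 UMIs. Ccl8 in act_CD4T cells reached 2280 CPM, from 34 UMIs, in the 5 cells of IL10/2-Trikine mouse 1 and 239.7 to 240.3 CPM in mice 2 and 5, against 42.7 to 98.4 CPM in mono-IL10. In Tregs Ccl8 was at 347, 41.4 and 90.3 CPM in the same IL10/2-Trikine mice and at 32.2 to 239 CPM in mono-IL10. Macrophage-like barcodes of the same libraries held Ccl8 at 642, 2206 and 1906 CPM and Ccl3 at 387, 283 and 251.6 CPM in PBS, mono-IL10 and IL10/2-Trikine. The part of macrophage RNA in these values was not tested. Without the mouse block no gene was called.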

How the data were processed

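Leukocytes from the tumors of 15 mice were profiled in 3 droplet libraries of 5 hashtagged mice each, with a matched hashtag library. Per the study's methods, the authors aligned reads to GRCm39 with Cell Ranger, kept cells with at least 1000 genes and at most 10% mitochondrial reads, and sub-clustered T cells in Seurat 5.1.0, naming the clusters by hand. The matrices, as deposited by the authors, give UMI counts of every gene in every barcode, with no normalization. The deposited metadata table gives each cell's cluster, mouse, UMI count (counts), number of genes detected (counts) and percent of mitochondrial reads. In 152 of the 159 Tregs its UMI total equaled that of the matrix, and the largest difference was 2. The table also lists 7858 cells of 1 group that is not analysed here. Each annotated cell carries 1 mouse or the word Negative as its hashtag class and none a doublet class, whether doublets were removed is not given in the sources used here, and no doublet caller was run.

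Cells were taken by cluster name. Members and gene lists were chosen with earlier results of these data known. Shares were compared over mice by exact two-sided permutation tests, with Benjamini-Hochberg adjustment over 12 tests. UMI counts were summed per mouse over both clusters, for mice with at least 3 Tregs, and tested in R 4.3.3 with edgeR 4.0.16 (TMM, filterByExpr with a minimum count of 5 and a minimum total of 15, robust quasi-likelihood, all 3 groups in 1 fit, adjustment over all genes of a comparison, threshold 0.05). CPM values are UMIs divided by all UMIs of the summed cells, times 1000000, without TMM. The test was run on simulated counts first. Other cells were summed in the same way. DESeq2 1.42.0, other filters, scalings and mice left out were tried as alternatives. Named genes were the markers and receptor chains, list members past the threshold, the 10 smallest p-values outside the lists in each comparison (mitochondrial, ribosomal, predicted and sex-linked genes counted but not named), and up to 4 members of each list with the highest levels. Ccl3 and Ccl8 were named because the interaction called them. Whether groups overlapped was looked at for the genes printed. The share of all tested genes whose groups did not overlap was not counted. Il10, Stat5b, Uhrf1, Mki67, Ube2c, Pdcd1, Gata3, Ccr8, Ifitm1 and the genes leading the clusters were named after their values were seen. With 14079 to 67799 UMIs per mouse, 3 UMIs amount to 44.2 to 213 CPM, and intervals cover counting error only. One result is not reported here.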

Additional observations from a re-analysis of the deposited data

Results flagged for a closer look

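A mouse far from the other 4 of its group was looked for in 83 groups of values and found in 5, where chance alone gives about 1 in 20. IL10/2-Trikine mouse 1 had 19.4% Tregs among T and NK cells, against 4.17% to 5.97% in the other 4 mice, and 32.5% among T cells, against 10.5% to 15%. It also supplied 13 of the 31 IL10/2-Trikine Tregs with a mouse. Il10ra stood at 284 CPM in PBS mouse 2 against 0 to 59.0 CPM in the others, where the library held 9 UMIs in all. Gstp1 was at 324 CPM in PBS mouse 1 against 138 to 162 CPM. Tap1 was at 179 CPM in mono-IL10 mouse 1 against 32.2 to 73.8 CPM.

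The response to IL10/2-Trikine against mono-IL10 differed between Tregs and act_CD4T cells for Ccl3, by -6.12 on the log2 scale, and for Ccl8, by -3.54 (adjusted p = 0.00132 and 0.0137, edgeR interaction test), in the few cells described above.

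Foxp3 UMIs also occurred outside the annotation. Among barcodes without an annotation that met the study's quality filter, 576 (PBS), 364 (mono-IL10) and 409 (IL10/2-Trikine) held a Foxp3 UMI and at least 2 CD3 UMIs. Their median UMIs were 13209.5, 13044 and 6340.0, and 91.0%, 91.2% and 95.4% of them also held at least 3 UMIs of C1q or keratin genes, which mark macrophages and tumor cells. The 52, 32 and 19 that held neither compare with 64, 58 and 37 annotated Tregs. Whether these are Tregs, doublets or free RNA was not tested, and 0.702%, 0.66% and 1.16% of macrophage-like barcodes held a Foxp3 UMI.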

How the results depend on the processing

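No difference in shares passed an adjusted p of 0.05 under any of the 168 alternative tests but 1. That was Fisher's exact test of the cycling share on cells pooled over mice, IL10/2-Trikine against mono-IL10 (Fisher's exact p = 0.00962, adjusted p = 0.0289). Of the pooled Tregs, 35.5% of IL10/2-Trikine and 10.7% of mono-IL10 cells cycled, a difference of 24.8 percentage points. Fisher's test treats cells of 1 mouse as independent, so it cannot decide whether the treatments differ, and nothing follows from its passing. Over mice, the exact permutation test gave an adjusted p of 0.114 for the same comparison. For the cycling share, 3 IL10/2-Trikine mice against 5 allow no permutation p below 0.0357 before adjustment, and fewer mice allow none as low. Those permutation tests had little or no room to pass, so nothing follows from their not passing. Small differences changed sign. IL10/2-Trikine minus mono-IL10 was 2.47 points of T and NK cells among cells with at least 2000 genes, and of T cells -0.38 for the Treg cluster alone and -0.89 for T cells with a Foxp3 UMI. IL10/2-Trikine minus PBS among CD4 clusters was -4.72 for the Treg cluster alone. mono-IL10 minus PBS among CD4 clusters was 0.47 for Foxp3 UMIs in thinned cells. Differences also changed in size with their sign kept. IL10/2-Trikine minus PBS among CD4 clusters was 13.4 over whole libraries and reached 45.7 with at least 2000 genes, IL10/2-Trikine minus mono-IL10 among CD4 clusters ran from 6.65 to 76.6, and the cycling share of IL10/2-Trikine minus PBS from 4.70 to 14.8. With at least 2000 genes mono-IL10 minus PBS among CD4 clusters reached -30.9 and IL10/2-Trikine minus mono-IL10 among T cells 9.27, and the cycling share of mono-IL10 minus PBS reached -15.1 for cells with an Mki67 UMI. mono-IL10 minus PBS ran from -0.93 to -14.9 of T and NK cells and from -1.19 to -16.9 of T cells, and IL10/2-Trikine minus PBS from -2.82 to -12.5 and from -0.89 to -7.67. With 1 mouse left out, IL10/2-Trikine minus PBS among CD4 clusters ran from -2.37 (without IL10/2-Trikine mouse 1) to 5.68, with -1.33 without PBS mouse 4 and -0.99 without IL10/2-Trikine mouse 3, and IL10/2-Trikine minus mono-IL10 among T cells from -0.95 (without IL10/2-Trikine mouse 1) to 4.93. The causes were not tested, nor was the part of unequal act_CD4T depth in the values with at least 2000 genes.

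Counts of called genes were small under every setting. Cells that held macrophage or NK UMIs are those with at least 3 UMIs of the macrophage genes or at least 3 of the NK genes. For IL10/2-Trikine against PBS they were 4 with DESeq2, 2 with total UMIs, 2 with a minimum count of 10, 6 with no filter, 0 with mice of at least 1 cell, 2 with at least 5, 5 in the Treg cluster alone, 2 with only the 2 groups fitted, 0 with every mouse thinned to 14079 UMIs, 5 without the 42 of 142 cells that held macrophage or NK UMIs, and 0 without the 2 cells with the most Ifitm2 UMIs, a setting chosen after their counts were seen. For IL10/2-Trikine against mono-IL10 they were 4 with DESeq2, 6 with no filter, 15 in the Treg cluster alone, 1 with only the 2 groups, 1 thinned, 1 without cells with macrophage or NK UMIs and 1 without the 2 Ifitm2 cells. For mono-IL10 against PBS they were 3 with no filter and 1 without cells with macrophage or NK UMIs. Leaving out 1 mouse gave 1 to 4, 0 to 4 and 0 to 2 genes, with 4 and 4 without IL10/2-Trikine mouse 1, 2 for the first comparison without IL10/2-Trikine mouse 2 or PBS mouse 1, 1 for the second without mono-IL10 mouse 5 and 2 for the third without mono-IL10 mouse 2. Ifitm2 lost its call with mice of at least 1 cell (adjusted p = 0.0794, edgeR), in the Treg cluster alone (0.062) and without its 2 highest cells, where its difference from mono-IL10 also turned to -0.027. With every mouse thinned to 14079 UMIs, Ifitm2 did not pass the filter on low counts and so was not called there either. The interaction called 0 genes without the mouse block and 8 in the Treg cluster alone for IL10/2-Trikine against mono-IL10, and 1 for mono-IL10 against PBS in the Treg cluster alone. Of 625 checks of named genes, 591 kept direction and side of the threshold, 30 passed it, 3 lost it and 1 changed sign. The 6 tested markers and receptor chains were called in 0 of 390 tests. No scaling moved the median of all genes by more than 0.0952 on the log2 scale. No paired analysis was possible because, between treatments, the mouse numbers are hashtag numbers and link no mice.

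With 2 to 17 Tregs per mouse, 3 IL10/2-Trikine mice in the gene tests and 1 library per treatment, only large differences could pass. In the cycling tests with IL10/2-Trikine even those had little or no room to pass. A difference that did not pass is not shown to be absent.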
